A study of Mus musculus with 2 samples.

Results

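The regions described here are macroH2A1 peaks that lay upstream of a gene with a symbol and no more than 10 kb from it in E14 mouse embryonic stem cells. They were taken from the authors' deposited peak list by its class (upstream), its symbol column and its shortest distance (at most 10000 bp). Of 2560 peaks in the list, 247 met this rule (9.65%), assigned to 246 genes. They were drawn from 883 upstream peaks of named genes and 1316 upstream peaks in all. The rest of the upstream peaks serve as the comparison: 383 peaks 10 to 50 kb from a named gene, 253 beyond 50 kb, and 433 upstream of Ensembl genes for which the list gives no symbol.

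The study holds 2 chromatin immunoprecipitation libraries (ChIP-seq), which sequence the DNA bound by an antibody. The first used a MacroH2A1 antibody raised against a fragment of the mouse protein, the second IgG from abcam, an unspecific control. Both come from untreated, unmodified E14 cells, an established line grown with leukemia inhibitory factor (LIF) on gelatine. There is 1 library per antibody and the deposited list is that of macroH2A1, so peaks are not replicates, no comparison below has a p-value, and intervals cover counting error only. No read count or enrichment accompanies a peak, the depth behind each is unknown, and no IgG values were analysed here. No expression values come with the list, so the labelled cell type could not be checked against its markers.

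MacroH2A1 is a variant of histone H2A that carries a large globular macro domain at its carboxyl end. It replaces H2A in some nucleosomes and is known for its place on the inactive X chromosome and on many repressed genes, developmental ones among them. Embryonic stem cells keep self-renewal genes active and hold lineage genes ready for differentiation. A region a few kilobases before a gene start can hold promoter-near regulatory elements, and it can also belong to a neighbouring gene.

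To show the starts that these peaks approach, the 250 bases before the gene start are printed for 9 member genes, 5' to 3' on the strand of the gene, from RefSeq (build GRCm38.p6). Capitals mark each CG dinucleotide, the site of DNA methylation in mammals. The deposited peaks are in the older build mm9, of which no genome was used here, so peak sequences are not printed and no peak was placed on these letters. Taar2, Tmem123, Cbln4, Olfr1148, H2-DMb1, Vps8, AI480653 and Apln meet the same conditions as the first 4 genes but are not printed. Their ratio of observed to expected CG ran from 0.225 (H2-DMb1) to 0.697 (AI480653). It was 0.886 in Crmp1, 0.920 in Gabbr2, 0.985 in Nrp2 and 0.137 in Atp6v1b1. The first 4 genes have a peak within 1 kb and a gene length in the list within 1% of RefSeq: Crmp1 (chr5:37241808-37242057, plus strand), Gabbr2 (chr4:46991715-46991964, minus), Atp6v1b1 (chr6:83742767-83743016, plus) and Nrp2 (chr1:62703067-62703316, plus).
Crmp1: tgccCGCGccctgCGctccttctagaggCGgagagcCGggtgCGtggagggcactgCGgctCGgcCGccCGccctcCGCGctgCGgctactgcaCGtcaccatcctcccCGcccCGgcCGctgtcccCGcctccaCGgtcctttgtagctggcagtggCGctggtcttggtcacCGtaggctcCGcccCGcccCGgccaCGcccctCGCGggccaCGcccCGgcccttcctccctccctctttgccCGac
Gabbr2: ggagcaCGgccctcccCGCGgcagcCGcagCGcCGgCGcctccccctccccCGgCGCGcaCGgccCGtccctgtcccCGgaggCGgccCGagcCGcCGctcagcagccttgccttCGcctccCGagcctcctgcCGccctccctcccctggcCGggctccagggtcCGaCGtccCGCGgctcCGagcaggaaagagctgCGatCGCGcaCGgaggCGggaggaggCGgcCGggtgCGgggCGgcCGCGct
Atp6v1b1: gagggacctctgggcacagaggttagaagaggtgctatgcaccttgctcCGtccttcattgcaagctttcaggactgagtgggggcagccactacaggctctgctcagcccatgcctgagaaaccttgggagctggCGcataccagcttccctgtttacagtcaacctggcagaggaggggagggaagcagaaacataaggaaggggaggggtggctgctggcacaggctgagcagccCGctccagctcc
Nrp2: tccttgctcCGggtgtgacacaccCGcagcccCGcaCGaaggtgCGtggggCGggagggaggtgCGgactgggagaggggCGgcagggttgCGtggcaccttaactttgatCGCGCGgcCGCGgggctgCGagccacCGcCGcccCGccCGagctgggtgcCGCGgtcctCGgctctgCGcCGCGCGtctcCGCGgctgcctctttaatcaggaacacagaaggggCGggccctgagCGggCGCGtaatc

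The Crmp1 stretch holds 30 CG, Gabbr2 37 and Nrp2 32, against 3 in Atp6v1b1. Over 10369 protein-coding starts of the same table the median was 7 (interquartile range 2 to 17). Peaks thus came close both to CG-rich and to CG-poor starts. The other 5 belong to genes of self-renewal, lineage and growth control: Dkk1 (chr19:30549497-30549746, minus), Sox1 (chr8:12395269-12395518, plus), Cdkn1a (chr17:29090729-29090978, plus), Tcf7l1 (chr6:72789046-72789295, minus) and Mycn (chr12:12941837-12942086, minus).
Dkk1: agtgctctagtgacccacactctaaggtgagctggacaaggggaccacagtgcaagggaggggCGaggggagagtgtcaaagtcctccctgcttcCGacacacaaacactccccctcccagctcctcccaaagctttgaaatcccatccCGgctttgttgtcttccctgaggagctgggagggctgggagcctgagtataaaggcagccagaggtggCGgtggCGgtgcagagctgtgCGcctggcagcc
Sox1: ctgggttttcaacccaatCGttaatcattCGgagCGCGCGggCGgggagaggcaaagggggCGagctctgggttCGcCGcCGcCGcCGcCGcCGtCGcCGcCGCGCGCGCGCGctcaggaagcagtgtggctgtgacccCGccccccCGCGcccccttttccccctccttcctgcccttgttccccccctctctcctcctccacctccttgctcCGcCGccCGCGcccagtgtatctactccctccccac
Cdkn1a: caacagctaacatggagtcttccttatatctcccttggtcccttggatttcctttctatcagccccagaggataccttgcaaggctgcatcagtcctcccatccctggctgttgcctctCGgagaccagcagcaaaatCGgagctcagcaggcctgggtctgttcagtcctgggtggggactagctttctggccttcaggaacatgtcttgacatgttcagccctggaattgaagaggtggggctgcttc
Tcf7l1: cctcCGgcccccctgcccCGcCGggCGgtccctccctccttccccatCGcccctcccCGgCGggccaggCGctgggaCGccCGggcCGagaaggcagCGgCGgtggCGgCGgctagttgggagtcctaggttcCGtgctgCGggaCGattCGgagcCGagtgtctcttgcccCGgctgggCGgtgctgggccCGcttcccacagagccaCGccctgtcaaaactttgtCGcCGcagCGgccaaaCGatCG
Mycn: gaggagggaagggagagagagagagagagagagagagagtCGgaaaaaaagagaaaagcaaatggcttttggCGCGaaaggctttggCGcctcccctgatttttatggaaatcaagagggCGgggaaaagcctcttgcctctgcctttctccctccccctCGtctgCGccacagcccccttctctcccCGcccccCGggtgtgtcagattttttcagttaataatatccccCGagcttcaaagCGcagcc

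Sox1 and Tcf7l1 have 29 CG each, Mycn 11, Dkk1 6 and Cdkn1a 2. Searched on both strands, TATAAA, the letters of the TATA box, occurred in Dkk1 alone among these 9 and in 15.9% of the 10369 starts. CCAAT, the box read by NF-Y, occurred in Sox1 alone among them and in 38.0% of all. The Cdkn1a stretch holds CATGNNNNNNCATG, which reads the same on both strands and is the core of the p53 consensus motif. It occurred in 0.521% of all starts (54) and was searched for after the sequence had been seen. The starts printed for Crmp1 and Cdkn1a are each the outer of 2 in the table. For Sox1 and Dkk1 the gene in the list was 0.30 and 0.74 times as long as in RefSeq, so their deposited starts may differ from those printed.

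A promoter entry existed for 169 of the 230 protein-coding member genes (73.5%), and in 96 of them it sat at the outer end of the gene. As this is under the 80% set for a check of base composition, that check is void and no value over the whole set is given. The same holds for the orientation of the upstream neighbour, known for 142 of them (61.7%).

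The distance profile inside 10 kb was set by the rule at both ends and is given as a description. At the inner end, the upstream class leaves out peaks that lie over a gene start. The median gap from gene start to nearest peak base was 3.76 kb (interquartile range 1.49 to 6.24 kb, extremes 34 and 9884 bp). Among the members, counts per kilobase were highest close to the start. Whether this goes beyond what the assignment of peaks to genes gives was not tested. There were 39 within 1 kb (15.8%, Wilson 95% interval 11.8 to 20.9%), 38 from 1 to 2 kb, then 23, 31 and 31 per kilobase up to 5 kb, and 15 to 19 per kilobase from 5 to 10 kb. Within 5 kb lay 162 (65.6%), within 500 bp 20, and within 250 bp 7.

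**Figure D1:**
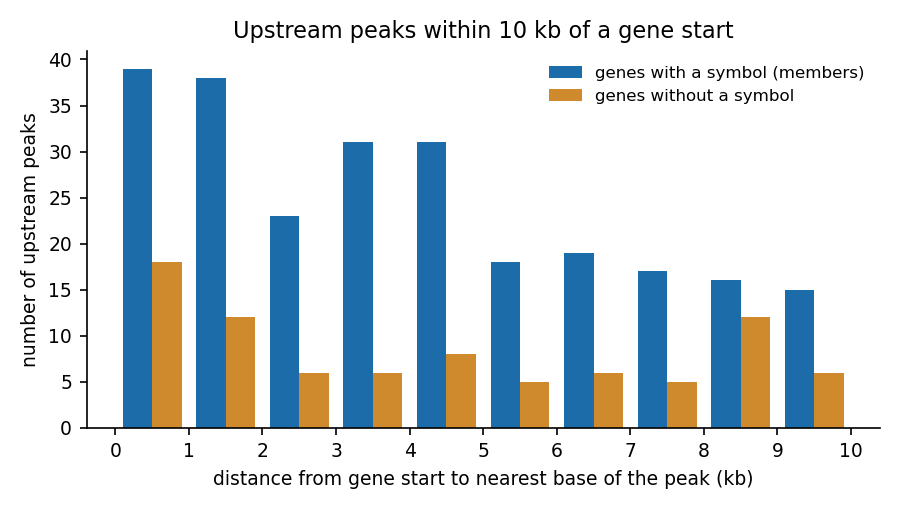
Number of upstream peaks (vertical axis) in each kilobase from the gene start to the nearest peak base (horizontal axis), for genes with a symbol and without one. The members fall from 39 in the first kilobase to 15 in the last, and the other series from 18 to 6, with 12 from 8 to 9 kb.

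Upstream peaks of genes without a symbol numbered 84 within 10 kb, 19.4% of 433 (16 to 23.4%), against 28.0% of 883 for named genes (25.1 to 31%). The intervals do not overlap. Those genes are short in the list (median 0.31 kb). Among named genes the numbers per 10 kb went on falling outside the set, from 247 to 166, 102, 72 and 43 in the steps up to 50 kb. Just inside the threshold were Cd82 (9753 bp), Akap1 (9850 bp) and Tubg2 (9884 bp), and just outside Fgg and Jam2 (10018 bp each) and Bsph1 (10090 bp).

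The peaks nearest to a start belonged to genes of varied function. Crmp1, which encodes a neuronal protein of the semaphorin response, had a peak ending 34 bp before its start (chromosome 5, 37631350 to 37633350, mm9 as for all peaks, 2001 bp wide). BC029684 followed at 57 bp with 2301 bp, and a second peak inside that gene lay 1.25 kb from the first. Pcdhb5, a clustered protocadherin, had a peak at 85 bp. Gabbr2, a subunit of the GABA-B receptor, had one at 164 bp (chromosome 4, 47004750 to 47006450) and Mtr, methionine synthase, at 188 bp (chromosome 13, 12350550 to 12352250).

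Tmem120b and the phospholipase family gene Pld4 came next, both at 216 bp. Atp6v1b1, a subunit of the vacuolar proton pump, had a peak at 261 bp and Taar2, a trace amine receptor, at 278 bp. AI429214 (308 bp), Cyp19a1 (aromatase, which makes estrogens, 321 bp), Tmem123 (331 bp), Cbln4 (a secreted synaptic protein, 431 bp), Sp7 (osterix, a bone transcription factor, 436 bp) and Zfp800 (445 bp) complete the 15 nearest. The Cyp19a1 start is uncertain, because the gene in the list is 0.27 times as long as in RefSeq. In all, 10 members had a gene length under 0.5 times and 4 over 2 times that of RefSeq, Sox1, Lmo2, Gpr81 and Th among them.

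Lists of genes with a known role were compared with all protein-coding genes, of which 1.06% (230 of 21631) had a peak of the set. In the 14 hand-written lists, 20 genes had one, and 5 lists had none. The lists were not tested, and with such small counts no list is called particular. They were chosen with earlier results of these data known, so a share above that of all genes supports nothing.

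Among pluripotency genes, 3 of 40 had a peak (7.5%, 2.58 to 19.9%), all within 5 kb, where the share of all genes is 0.693%, and 9 of 40 had an upstream peak at any distance, where the share of all genes is 3.43%. Tcf7l1, a Wnt pathway repressor that limits self-renewal, had a peak at 3.15 kb (chromosome 6, 72742100 to 72743650, 1551 bp). Lefty1, an inhibitor of Nodal signalling, had a wider one at 3.24 kb (chromosome 1, 182859700 to 182861950, 2251 bp). Mycn, a growth-promoting transcription factor of stem cells, had a narrow one at 3.31 kb (chromosome 12, 12951950 to 12953050, 1101 bp). These 3 peaks were thus at nearly the same distance from the start but ran from 1101 to 2251 bp in width. Tcf7l1 and Mycn each had another upstream peak farther out, at 30.5 and 69.6 kb.

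Developmental signalling genes had peaks at 5 of 125 (4.00%, 1.72 to 9.02%), 4 of them within 5 kb. Dkk1, a secreted Wnt antagonist, was the only gene with 2 members. These lay at 0.887 kb (chromosome 19, 30624900 to 30626500, 1601 bp) and 2.94 kb (30626950 to 30628200, 1251 bp), 0.45 kb apart. Wnt8a, a Wnt ligand of early mesoderm, had a member at 4.47 kb and another peak inside the gene, 0.383 kb past its start. Fgfr1, an FGF receptor needed for exit from self-renewal, had a peak at 1.59 kb (chromosome 8, 26625900 to 26627650). Lefty1 counts here too. Ligands, antagonists and receptors were all among them.

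Developmental transcription factors had peaks at 4 of 196 (2.04%, 0.80 to 5.13%). Barx1, a homeobox gene of stomach and tooth, had one at 1.19 kb (chromosome 13, 48756150 to 48757300) and a peak downstream as well, 88.6 kb from its start. Sox1, a neural progenitor factor, had one at 1.70 kb (chromosome 8, 12392800 to 12394650), Nkx2-3, a homeobox gene of gut and spleen, at 2.47 kb (chromosome 19, 43682500 to 43684350) and Tbx20, a heart T-box gene, at 8.45 kb (chromosome 9, 24587200 to 24589500, 2301 bp). The interval includes the background of 1.06%. At any upstream distance 20 of 196 had a peak (10.2%), against 3.43% of all genes. By the same measure neuronal genes had 13 of 82 (15.9%) and developmental signalling genes 10 of 125 (8.0%). Cell cycle genes (3.92%), chromatin regulators (4.29%) and imprinted genes (2.78%) were near the share of all genes. The spacing between genes was not taken into account. Of 39 Hox genes 1 had a member, Hoxb13, the outermost gene of its cluster, at 1.45 kb (chromosome 11, 96051900 to 96054250, 2351 bp), with a further peak downstream, 6.60 kb from its start. Pax genes had none of 9, a count of 0 that allows a share of up to 33.3%, and 2 of 9 had an upstream peak at any distance.

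Cell cycle and growth control genes had 2 of 51 (3.92%, 1.08 to 13.2%). Cdkn1a, the cyclin-dependent kinase inhibitor p21, had a peak 2.37 kb before its start (chromosome 17, 29223400 to 29225550, 2151 bp). E2f1, which drives entry into S phase, had one at 9.56 kb (chromosome 2, 154405150 to 154406450, 1301 bp), near the limit of the set. The hand-written neuronal list had 3 of 82 (3.66%, 1.25 to 10.2%), none within 5 kb. They were Tph2 and Th, the rate-limiting enzymes of neuronal serotonin and of catecholamine synthesis, at 5.37 and 8.32 kb, and the calcium channel gene Cacna1a at 7.76 kb. This holds for that list only: Crmp1 and Gabbr2, which are not in it, had peaks at 0.034 and 0.164 kb. The Th gene in the list is 5.24 times as long as in RefSeq, so its distance is doubtful. Single members came from the chromatin regulators (Cbx8, a Polycomb subunit, at 4.62 kb, 1 of 70), the imprinted genes (Dlk1, a Notch-related ligand, at 7.11 kb, 1 of 36) and the matrix and mesenchyme genes (Thy1, a surface glycoprotein, at 7.27 kb, 1 of 52).

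No member was assigned to a gene of the epidermal (34 genes, up to 8.82%), germline (38, up to 7.89%), trophoblast and extraembryonic (30, up to 10.0%), housekeeping (40, up to 7.5%) or immune (49, up to 6.12%) lists. The upper shares are those that a count of 0 allows. Each of these limits is above the background of 1.06%, so a share equal to it could not have been told from 0. The counts cover only the genes written into the lists. Tlr3, H2-DMb1 and the keratin gene Krt9, which are in none of them, each had a member.

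**Figure D2:**
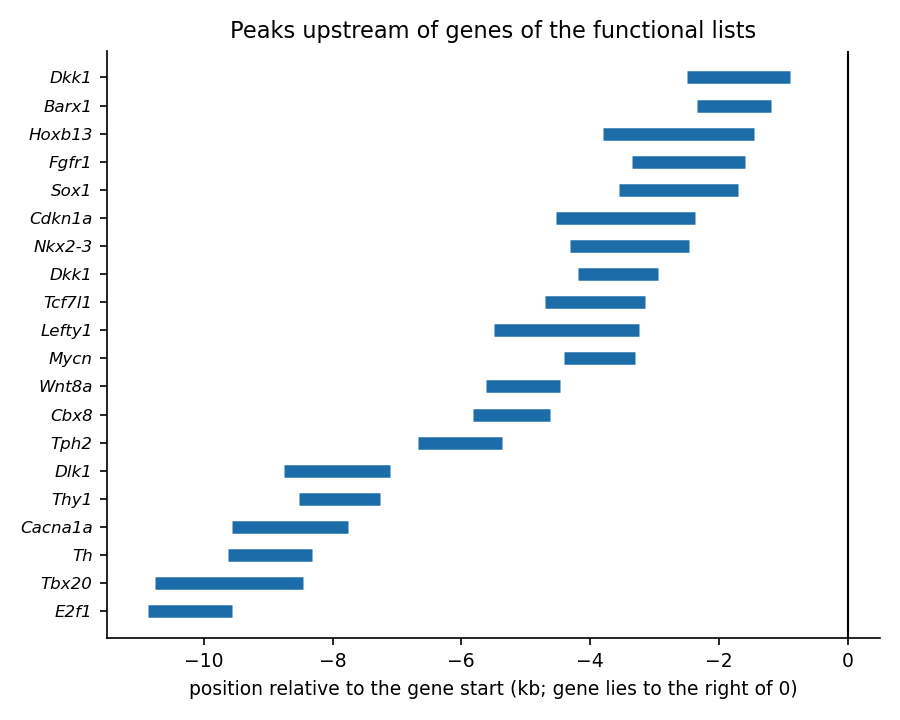
Extent of 20 of the 21 peaks at genes of the functional lists, as distance from the gene start in kilobases (0, vertical line), with the gene to the right. Peaks run from Dkk1, 0.887 kb from its start, to E2f1 at 9.56 kb, and 2 of them are those of Dkk1.

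By symbol family, solute carriers (Slc) had 5 of 375 (1.33%), among them Slc25a30, the lactate transporter gene Slc16a3, Slc4a8 and Slc44a3. Zinc finger genes (Zfp) had 4 of 397 (1.01%), Zfp800, Zfp810, C920016K16Rik (now Zfp952) and Zfp37, and Tmem genes 4 of 238 (1.68%), Tmem120b, Tmem123, Tmem232 and Tmem229b. These shares were near the background. Olfactory receptors had 4 of 1110 (0.36%, 0.14 to 0.92%), Olfr1148, Olfr391, Olfr3 and Olfr969, with an interval below the background. Vomeronasal receptors had none of 355. The limit used above for a count of 0 is 0.845% here, below the background, but the Wilson upper bound is 1.07%. The 2 bounds differ, so these receptors are not called separate from the background. At any upstream distance 0.63% of olfactory and 0.56% of vomeronasal receptors had a peak, against 3.43% of all genes. Cytochromes P450 had 3 of 99 (Cyp19a1, Cyp2d22 and Cyp2u1), potassium channels 2 of 94 (Kcnj8 and Kcnk10), and cadherins and protocadherins 2 of 92 (Pcdhb5 and Pcdha6). Single genes came from the Cacn (Cacna1a), Krt (Krt9), Wnt (Wnt8a), Fgf with Fgfr (Fgfr1), Sox (Sox1), Tbx (Tbx20), Fox (Foxq1) and Hox (Hoxb13) symbols and from the Il, Cxcl and Ccl symbols (Il1rap). Rab, Arhg, Col and Bmp genes had none, of 69, 62, 44 and 16.

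Sorted by hand into roles after the members were known, the 246 genes were spread widely. Metabolic enzymes made up 30 genes (12.2%), transcription factors and cofactors 26 (10.6%), secreted signals with their receptors and regulators 24 (9.76%), and ion channels, transporters and neurotransmission 23 (9.35%). Kinases, G proteins and other intracellular signalling made up 17, immunity and blood 16, and adhesion, axon guidance and matrix 15. The chromatin and nucleic acid regulators and the cytoskeleton and muscle genes had 12 each, olfactory receptors 4 and cell cycle genes 3. The other 64 were not sorted. These groups describe the set and were not compared with other genes. All genes named from them below were chosen after their values were seen.

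Transcription factors outside the lists included regulators of several lineages. Lmo2, needed for blood formation, had a peak at 1.49 kb, Foxq1 at 2.61 kb, Rax, an eye field gene, at 3.76 kb, Myb, a factor of blood progenitors, at 4.91 kb and Nr2f1, an orphan nuclear receptor of neural development, at 6.31 kb. Cited2, a transcriptional cofactor, had a member at 6.23 kb and another upstream peak 516 kb away. The median distance of the 26 factors was 3.53 kb, and their median width of 1726 bp compares with 1551 bp over all members. The adhesion, the kinase and the cell cycle groups had a median of 1701 bp each, so this width is not particular to the factors. Among chromatin regulators outside the lists, Epc1, of a histone acetyltransferase complex, had a peak at 0.865 kb, Psip1 (LEDGF) at 3.23 kb, Hdac11, a histone deacetylase, at 4.66 kb and Chd9, a remodeller, at 8.74 kb.

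Signals and receptors near a peak included peptide hormones. Gip, an incretin of the gut, had one at 0.459 kb, Apln, the ligand of the apelin receptor, at 0.821 kb, and Crh, the releasing hormone for corticotropin, at 9.67 kb. Dact1, a modulator of Wnt signalling, had one at 3.97 kb. In the semaphorin pathway, peaks lay at the receptor genes Nrp2 (0.709 kb), Plxnb3 (4.14 kb) and Plxnc1 (9.54 kb), beside Crmp1. Channels of muscle included Ryr1, the calcium release channel of skeletal muscle, at 1.63 kb and Chrne, a subunit of the muscle acetylcholine receptor, at 3.80 kb.

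Enzymes near a peak fell into several pathways. Odc1 and Amd1, which encode the regulated steps of polyamine synthesis, had peaks at 1.68 and 3.42 kb, and Amd1 had another upstream peak at 18.2 kb. Ass1, of the urea cycle, had one at 2.87 kb and Nampt, of NAD synthesis, at 1.44 kb. Genes of digestive secretions were Amy1 (amylase, 2.45 kb), Pgc (progastricsin, 2.44 kb), Clps (colipase, 3.84 kb) and Pla2g1b (pancreatic phospholipase A2, 5.38 kb). The adenylyl cyclases Adcy5 and Adcy6 had peaks at 1.66 and 3.94 kb. Immune genes included Tlr3, a receptor for double-stranded RNA, at 0.557 kb, and the class II genes H2-DMb1 at 0.486 kb and H2-Ea, a transcribed pseudogene in RefSeq, at 2.16 kb.

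Most genes of the set had that peak only. A further peak of the list was assigned to 26 of the 246 genes, 31 peaks in all, of which 18 were upstream beyond 10 kb, 7 inside the gene and 6 downstream. With Dkk1 this makes 27 genes (11%, 7.65 to 15.5%) with more than 1 peak, against 116 of 561 genes of the other named upstream peaks (20.7%). Of those 561, 15 also have a member and so have several peaks by construction. Without them the share of the others was 101 of 546 (18.5%, 15.5 to 22%), and the intervals just meet. The same 15 genes stay among the 27 of the set, so they were left out on that side only. A comparison without them on either side was not made. Over all genes of the list, those of the set included, the share with more than 1 peak was 316 of 2132 (14.8%, 13.4 to 16.4%), which overlaps the interval of the set. The genes with 3 listed peaks were Sulf2, a heparan sulfatase that modulates Wnt and FGF signals, Cmas, which activates sialic acid, Kcnk10, Chd9 and Nt5e, a nucleotidase. For Nt5e, 1 region inside the gene is listed under 2 peak names.

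Sulf2 had its member at 4.59 kb (2401 bp) and upstream peaks at 52.0 and 128 kb. Cmas had the widest member, 2601 bp at 4.68 kb (chromosome 6, 142698000 to 142700600), and upstream peaks at 10.3 and 19.4 kb, the first 3.05 kb from the member. Close pairs were few. Another peak of the list lay within 10 kb of 11 members (4.45%, 2.50 to 7.80%), against 6.13% of the other named upstream peaks (4.52 to 8.27%). Besides Dkk1, Cmas, BC029684, Wnt8a and Hoxb13 these were Strap, Kcnk10, 1700021P04Rik, Ramp3 and H2-DMb1. The H2-DMb1 peak also lay over another gene of the list, H2-DMb2, as did those of Gm4793 (over Nav1) and Umodl1. Overlap was searched for only with genes of the list itself.

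Median peak width, a measure the rule did not use, differed by no more than 50 bp between the sets. Starts and ends lie on a 50 bp grid, so smaller steps in width could not be seen. No peak of the list is narrower than 1051 bp, a width that 148 peaks share, and this floor is common to all sets. The median was 1551 bp for the members (interval 1501 to 1601 bp, interquartile range 1301 to 1851 bp) and 1601 bp (1551 to 1601 bp) for the other 636 named upstream peaks. At genes without a symbol the median was 1551 bp. Peaks of at least 2000 bp made up 15% of the members (37, 11.1 to 20.0%) and 16.4% of the others (104, 13.7 to 19.4%). The others were not uniform: this share was 20.1% (16.4 to 24.4%) at 10 to 50 kb and 10.7% (7.44 to 15.1%) beyond 50 kb, and the interval of the members overlaps both. Within the set, the median was 1601 bp up to 1 kb from the start, 1651 bp from 1 to 2 kb, and 1551 bp both from 2 to 5 and from 5 to 10 kb, with overlapping intervals.

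The widest members after Cmas were at Creg1 (2501 bp), Sp7 (2451 bp), Gm9792 and Sulf2 (2401 bp each), Hoxb13 (2351 bp) and, at 2301 bp each, BC029684, Ppid, Zscan2 and Tbx20. The narrowest width in the list, 1051 bp, occurred in 9 members, the farthest of them at Olfr391, Pld5, Manea, Chrne and Olfr969. The other olfactory receptor members, Olfr1148 and Olfr3, had widths of 1201 and 1251 bp.

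Genes of the set were shorter. Their median length in the list was 19 kb (15.2 to 25.8 kb), against 32.9 kb (26.5 to 40.7 kb) for named genes with an upstream peak 10 to 50 kb away and 64.3 kb (43.0 to 79.9 kb) for those beyond 50 kb. Gene length was not used by the rule. The spacing between genes was not measured here. Within the set the median was 15.5 kb for genes with a peak up to 1 kb away, 21.1 kb from 1 to 2 kb, 14.8 kb from 2 to 5 kb and 27.5 kb from 5 to 10 kb, with no steady order.

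**Figure D3:**
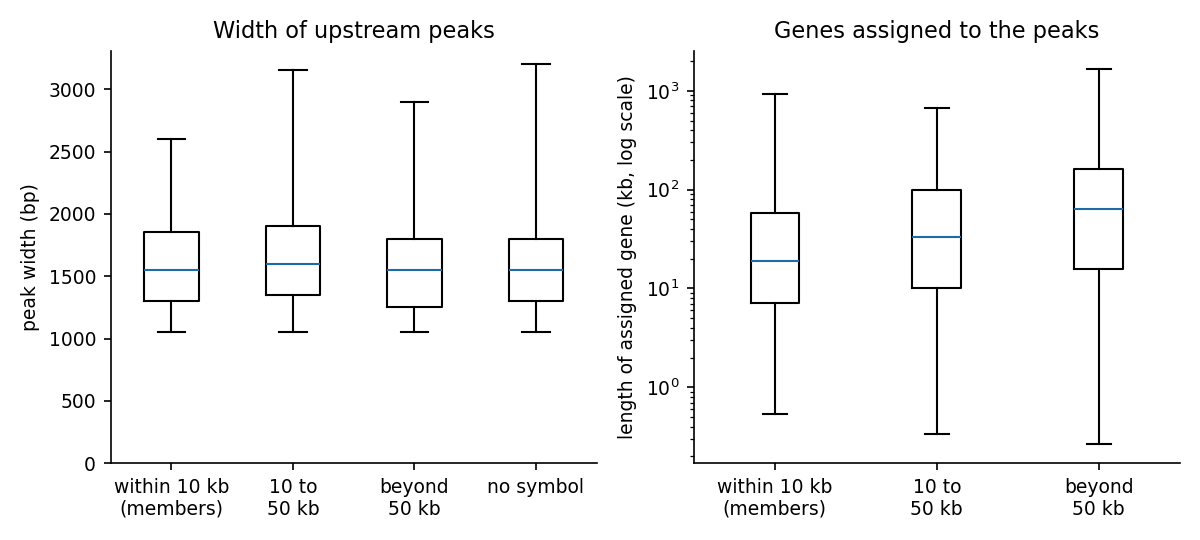
Left, width of upstream peaks in bp, and right, length of their assigned genes in kb on a log axis (each gene once), by distance class. Boxes show median and quartiles and whiskers the full range: median widths are 1551 to 1601 bp in every class, while median gene length goes from 19 to 64.3 kb.

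The members lay on all 20 chromosomes in the list. Chromosome 4 had the most, 21, then chromosome 2 with 19 and chromosomes 11 and 17 with 18 each. Chromosome 5, which has the most peaks of the whole list, held 14 members (5.67%, 3.41 to 9.29%), against 70 of the other named upstream peaks (11%, 8.80 to 13.7%), with overlapping intervals. Of its 84 named upstream peaks, 16.7% (10.2 to 26.1%) were within 10 kb. On chromosome 17 this was 50% (18 of 36, 34.5 to 65.5%), on chromosome 11 45.0% (18 of 40, 30.7 to 60.2%), and over all chromosomes 28.0%. Chromosome 14 had 4 members beside 27 others. The X chromosome had 4 members (1.62%, 0.63 to 4.09%), Apln and Plxnb3 among them, and 5 others (0.79%). These chromosomes were singled out after their values were seen, from 20, and the density of genes was not taken into account.

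**Figure D4:**
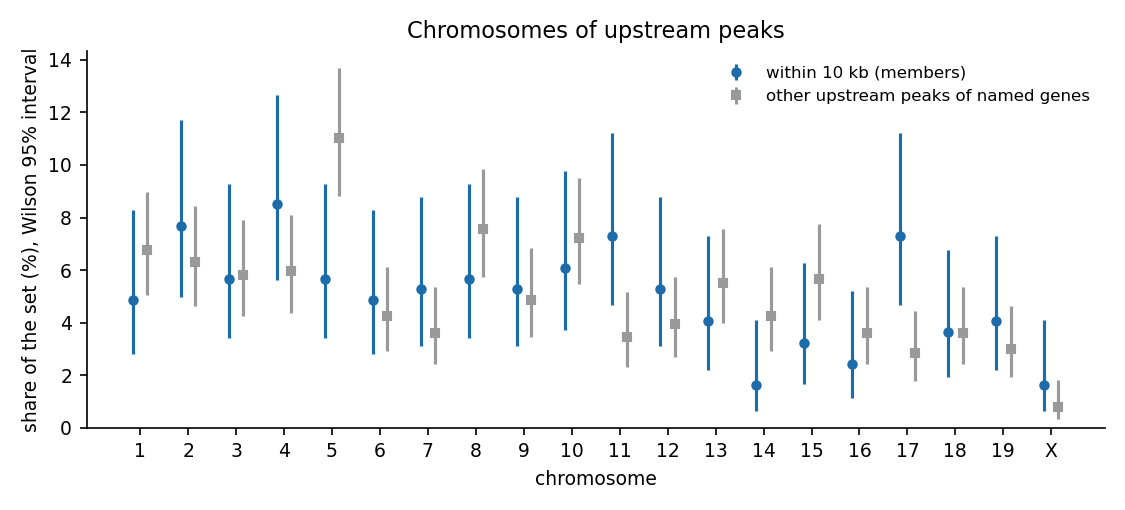
Share of each set (vertical axis, percent, with Wilson 95% intervals) on each chromosome (horizontal axis), for members and for the other upstream peaks of named genes. Chromosome 5 holds 5.67% of the members and 11% of the others, chromosome 17 7.29% and 2.83%, and chromosome 17 is the one where the intervals do not overlap.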

How the data were processed

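Per the submitters' processing notes, the authors used Bowtie and the build NCBIM37 (mm9). All peak names start with CCAT and the columns follow ChIPpeakAnno, per the file headers. The caller's settings, its control and its read filters are each not given in the sources used here. Peak coordinates, widths and distances in bp are as deposited. Starts and ends lie on a 50 bp grid, and the deposited shortest distance equalled the recomputed gap in all 247 members. Symbols were matched to RefSeq (GRCm38.p6) on the same chromosome, which succeeded for 241 members. 14 members had more than 1 symbol. Shares carry Wilson 95% intervals and medians order-statistic intervals, tested on simulated data (Python 3.11.15, pandas 2.3.3, numpy 2.4.6, scipy 1.17.1).

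The members and lists were chosen with earlier results of these data known. Named are list and family genes, the 15 nearest, 10 widest and 5 narrowest peaks, genes with 2 members, those on chromosome X and those next to the threshold. A rule for genes with extreme promoter CpG was not used, as that check is void. The promoter start was required to be the outer end of the gene, a condition set after the data were seen. Some member genes are counted but not reported by name here.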

Additional observations from a re-analysis of the deposited data

How the results depend on the processing

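Of 22 alternatives for 7 results, 17 left the value within its interval. For the share within 10 kb, 2 of these changed no member and gave 28.0% again: the recomputed gap, and each region counted once. They are therefore no check of that share. The share of named upstream peaks within the limit was 18.3% with a limit of 5 kb, and 19.4% at genes without a symbol, against 28.0%. The share of members with another peak nearby was 15.8% within 50 kb (11.8 to 20.9%). For the other named upstream peaks it was 22.2% (19.1 to 25.6%), with overlapping intervals. Genes of the lists with a member numbered 12 with a limit of 5 kb and 10 among peaks wider than the median, against 20, since both settings keep fewer peaks. Other settings for promoter CpG were not run, because that check is void. The median width difference of -50 bp was 0 bp with a limit of 5 kb and with 1 peak per gene. No paired analysis was possible because there is 1 library per group. The unknown depth limits every peak.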

Other observations

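On chromosome 17, 12 of the 18 members fell between Fbxl16 (25944100) and Trim26 (36972600). In order they were assigned to Fbxl16, Tcp11, a testis gene, Def6, Gm749, Clps, Cdkn1a, Umodl1, C920016K16Rik, 4921501E09Rik, H2-DMb1, H2-Ea and Trim26. Their distances ranged from 0.486 kb at H2-DMb1 to 8.28 kb at Gm749, and widths from 1251 bp at Fbxl16 to 2201 bp at Tcp11. The peaks from Fbxl16 to 4921501E09Rik start at 25.9 to 33.2 Mb, before those of the class II genes H2-DMb1 and H2-Ea at 34.3 and 34.5 Mb. The stretch was chosen after its peaks were seen, and gene density there was not taken into account. Peaks outside the set were not counted in it, so the 12 cannot be set against a share of other peaks.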
